A study of Mus musculus with 6 samples.

Results

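Transcript levels of 6 acyl-CoA thioesterase genes, Acot1, Acot2, Acot7, Acot8, Acot9 and Acot13, were compared between mouse ADSCs carrying a hairpin against Ifit1 and ADSCs carrying a scrambled hairpin. The genes were taken by symbol, 6 of the 19877 genes of the deposited table, and they were chosen by their measured FPKM differences between the knockdown and scrambled libraries. Their differences between the groups are therefore given as a description, without a test. Both groups had 3 libraries, and both are labelled wild type in genotype, with the scrambled hairpin as the control treatment. The labels write only ADSCs, usually short for the stem or stromal cells of adipose tissue, which can form fat, bone and cartilage. The age and sex of the animals, the way the hairpins were delivered and the number of clones or cultures are not stated in these sources. The labels place 1 library of each group in each of 3 batches and do not say whether these came from separate cultures or animals, so any spread between libraries may be technical.

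Acyl-CoA thioesterases split the thioester bond of an acyl-CoA and release a free fatty acid and coenzyme A, the reverse of the step by which acyl-CoA synthetases activate fatty acids. The family holds a pair of unrelated folds. Type I enzymes, here Acot1 and Acot2, are alpha/beta hydrolases, and type II enzymes, here Acot7, Acot8, Acot9 and Acot13, have the hotdog fold. Members differ in compartment and in preferred chain length, so each releases free fatty acid and free coenzyme A in its own compartment. In mouse liver and heart, Acot1 and Acot2 are known as genes induced by fasting and by activators of PPAR alpha, the nuclear receptor of fatty acids. The deposited annotation gave all 6 genes palmitoyl-CoA hydrolase activity, a term held by 15 genes of the table. It placed 5 of them in the mitochondrion, with Acot7 listed for the mitochondrial matrix and the cytosol, and placed Acot8 in the peroxisome.

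Acot2 and Acot1 are shown by sequence first, because they are close copies and their values cannot be read apart from that. On GRCm38 in GENCODE M21, Acot2 lies at chr12:83987861-83993873 and Acot1 at chr12:84009490-84018371, both on the plus strand with 3 exons, 15616 bases apart. They open a run of 6 type I genes, with Acot4, Acot3, Acot5 and Acot6 after them, over 123 kb. The coding sequence had 1359 bases in Acot2 and 1257 in Acot1, and 95.6% of the 1236 bases that could be aligned were the same. The pair differ most at the start, where Acot2 has a leader that Acot1 lacks. Mitochondrial Acot2 and cytosolic Acot1 are known to differ by such a targeting leader. The first 159 coding bases of Acot2 (chr12:83987902-83988060, plus strand, exon 1) and the first 36 of Acot1 (chr12:84009510-84009545, plus strand, exon 1) are given from the start codon, with capitals for bases that are the same in both after the first shared run of 10 bases. That run began after 129 bases in Acot2 and after 6 bases in Acot1.
Acot2: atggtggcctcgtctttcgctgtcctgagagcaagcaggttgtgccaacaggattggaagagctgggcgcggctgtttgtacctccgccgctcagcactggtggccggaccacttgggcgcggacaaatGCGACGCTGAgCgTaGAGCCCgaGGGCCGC
Acot1: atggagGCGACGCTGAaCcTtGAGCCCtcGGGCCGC

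Downstream of the leader the copies were identical over long stretches. The 80 coding bases with the most differences behind the start, chr12:83992648-83992727 in Acot2 and chr12:84016926-84017005 in Acot1, both on the plus strand, held 14 differing bases, which are in capitals.
Acot2: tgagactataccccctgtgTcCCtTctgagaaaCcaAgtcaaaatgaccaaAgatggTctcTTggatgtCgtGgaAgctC
Acot1: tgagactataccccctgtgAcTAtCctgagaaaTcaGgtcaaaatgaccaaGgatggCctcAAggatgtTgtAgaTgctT
Identical runs of 273, 225 and 158 bases lay in the coding part. Of all 100-base windows of the Acot2 transcript, 17.1% stood unchanged in Acot1, and 16.5% of the windows of Acot1 stood unchanged in Acot2. Acot1 also shared 4.79% of its windows with Acot3, and Acot2 shared 0 with Acot3, Acot4, Acot5 or Acot6. The sources do not state how reads with several matches were counted, so the split of reads between Acot1 and Acot2 is uncertain.

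**Figure D1:**
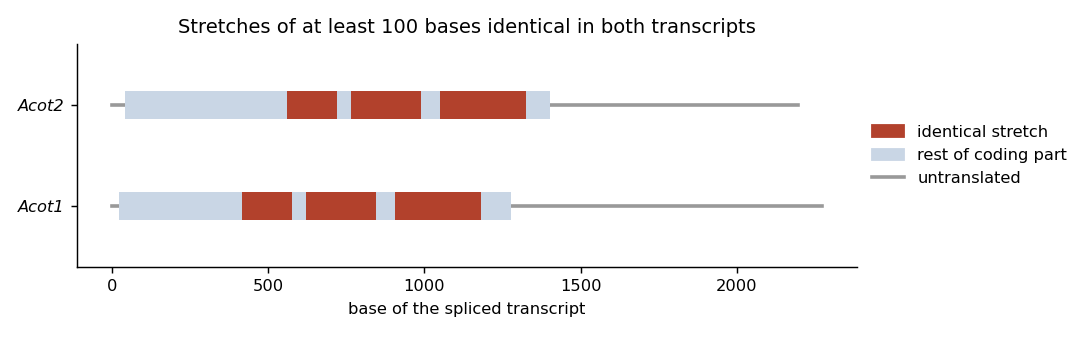
The spliced Acot2 and Acot1 transcripts are drawn to scale by base, with the coding part as a pale bar, untranslated parts as a line and stretches of at least 100 bases that are identical in both as red bars. There are 3 such stretches, of 158, 225 and 273 bases, all in the coding part, and none covers the Acot2 leader.

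Upstream of the genes no such long identical run was found. The longest run of bases shared by the 250 bases before the RefSeq start of each gene was 9. The stretches are chr12:83987611-83987860 for Acot2 and chr12:84009252-84009501 for Acot1 on GRCm38.p6 (RefSeq, plus strand), shown because these are the copies with the largest differences between the groups, with capitals for CCAAT on either strand.
Acot2: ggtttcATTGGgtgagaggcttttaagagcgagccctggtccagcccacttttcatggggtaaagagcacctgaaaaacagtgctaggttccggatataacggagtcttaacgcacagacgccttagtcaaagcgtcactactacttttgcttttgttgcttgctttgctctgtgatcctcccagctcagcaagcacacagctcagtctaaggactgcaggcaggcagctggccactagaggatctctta
Acot1: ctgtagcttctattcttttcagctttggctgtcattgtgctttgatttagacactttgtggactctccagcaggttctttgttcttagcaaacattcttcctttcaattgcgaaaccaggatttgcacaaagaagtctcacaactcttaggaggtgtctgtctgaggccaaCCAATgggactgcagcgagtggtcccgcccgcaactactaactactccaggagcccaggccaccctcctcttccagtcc
RefSeq promoters were found for 5 of the 6 genes (Acot1, Acot2, Acot7, Acot8 and Acot9). Among these, 4 held CCAAT, which 33.8% of all 32851 promoter stretches of that length hold on either strand, and 4 held the GC box GGGCGG, against 32.7% of all, with the pair of matches in Acot7 overlapping by a base. None of the 5 held the nuclear receptor site AGGTCA (14.0% of all) or its direct repeat with 1 base between, the form bound by PPAR (0.0335%), and none held the composite element TGATGNAAN bound by ATF4 (3.44%), the cyclic AMP element TGACGTCA (1.55%) or the interferon-stimulated element, GAAA repeated after any pair of bases (2.98%). The hypoxia core ACGTG (16.6% of all) was in none of the 5, and GCGTG (28.2%) was in Acot7 and Acot8. The Acot7 stretch, chr4:152185358-152185607, lies inside the GENCODE gene, which starts at 152178134. Its matches therefore describe an internal RefSeq start and not the GENCODE start of Acot7. A match or its absence describes these letters in this window.

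The cells, labelled only as ADSCs, had some listed stromal markers at high and some at low levels. The epithelial and mesothelial marker Krt19 reached 83.6 FPKM. All 12 listed stromal genes stood in the table, and their summed level was 3588 to 3767 FPKM in knockdown and 4227 to 4410 FPKM in scrambled libraries. Its members went opposite ways, with 7 lower and 3 higher of 11 tested (limma). Col1a1 was 596 to 751 FPKM in knockdown and 1155 to 1333 FPKM in scrambled libraries, while Vim was 1782 to 1893 FPKM in knockdown and 1384 to 1550 FPKM in scrambled libraries and Cd44 was 111 to 122 FPKM in knockdown and 74.9 to 86.6 FPKM in scrambled libraries. Nt5e (CD73) was low, at 0.182 to 0.220 FPKM in knockdown and 0.154 to 0.351 FPKM in scrambled libraries. Eng was 1.18 to 1.26 FPKM in knockdown and 1.98 to 2.18 FPKM in scrambled libraries. Pdgfra was 1.01 to 1.26 FPKM in knockdown and 1.68 to 2.04 FPKM in scrambled libraries. FPKM are fragment counts scaled to gene length and library depth, and a comparison of levels between genes rests on the length that was used. The endothelial markers summed to 0.0416 to 0.103 FPKM in knockdown and 0.0136 to 0.104 FPKM in scrambled libraries, with all 7 in the table under 0.1 FPKM. The summed level of 4 adipocyte markers was 1.18 to 1.55 FPKM in knockdown and 1.81 to 2.29 FPKM in scrambled libraries, with Adipoq and Retn under 0.1. The macrophage markers in the table (7) summed to 5.85 to 5.97 FPKM in knockdown and 4.53 to 5.61 FPKM in scrambled libraries. Ptprc, Itgam, Lyz2 and Tyrobp were under 0.1. Of 2 tested macrophage markers, 1 was higher and 0 lower in knockdown (limma). Cd14 was 3.78 to 4.13 FPKM in knockdown and 2.52 to 3.22 FPKM in scrambled libraries. Cd68 was 1.63 to 2.02 FPKM in knockdown and 1.79 to 2.16 FPKM in scrambled libraries. Epithelial or mesothelial markers (8 genes) summed to 97.0 to 97.3 FPKM in knockdown and 87.4 to 98.2 FPKM in scrambled libraries. Of 2 tested, 1 was higher and 1 lower in knockdown (limma). Krt19 was 78.5 to 83.6 FPKM in knockdown and 66.4 to 70.6 FPKM in scrambled libraries. The mesothelial marker Msln was 13.1 to 17.7 FPKM in knockdown and 17.5 to 25.4 FPKM in scrambled libraries. The rest of this list was low. Upk3b and Wt1 were under 0.1 FPKM, and the highest values were 0.255 for Epcam, 0.157 for Cdh1, 0.758 for Krt8 and 1.13 for Krt18. The part of these shifts in the results was not tested, and in bulk RNA a lower level per cell and fewer cells with the transcript cannot be told apart. Ifit1, the target of the hairpin, was 1.76, 1.48 and 1.51 FPKM in knockdown libraries 1, 2 and 3 and 4.90, 3.75 and 4.97 FPKM in scrambled libraries 1, 2 and 3. It fell by 1.27 on the log2 scale (SE 0.11, limma adjusted p = 5.71e-05), and the groups did not overlap. Between 32.2 and 40.2 M fragments were recovered per knockdown library and between 37.1 and 40.6 M per scrambled library.

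The 6 genes did not move as a block. The type I pair was lower in knockdown, Acot7 and Acot9 were a little higher, Acot13 was a little lower, and Acot8 overlapped between the groups. A gene was tested when it reached 1 FPKM in at least 3 of the 6 libraries, which 5 of the 6 did; Acot1 reached it in 1 library. Of all 10311 tested genes 51.0% were past an adjusted p of 0.05 (limma), 19.8% as higher and 31.1% as lower in knockdown. No count of calls is given for the members, since the same differences chose them. The balance of higher and lower calls over all genes, 2046 and 3209, moved with the scaling, to 1540 and 4035 rescaled to TPM, 3001 and 2293 under median centring and 2486 and 2256 under quantile normalization. Values of the groups did not overlap for 5 of the 6 genes, against 61.1% of tested genes and 40.0% of all 19877 genes, and nothing is read from this count either. Without the filter 25.4% of all genes passed. The median log2 fold change was −0.12 over the 5 tested members and −0.05 over all tested genes.

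**Figure D2:**
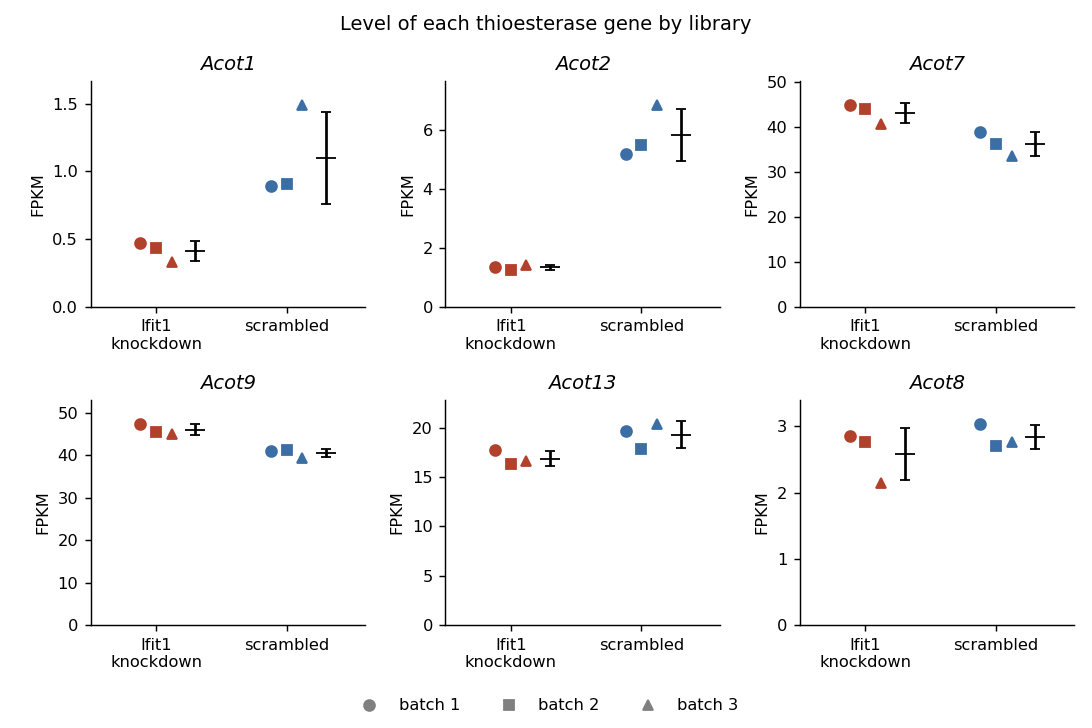
Each panel plots the FPKM of 1 thioesterase gene in the 3 Ifit1 knockdown libraries (left) and the 3 scrambled libraries (right), with the batch as the symbol and the mean ± SD beside the points. Acot2 lies between 1.24 and 1.40 FPKM in knockdown and between 5.19 and 6.86 FPKM in scrambled libraries, while Acot8 overlaps.

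Acot2, the thioesterase of the mitochondrial matrix that acts on long-chain acyl-CoAs, had the largest difference. Its level was 1.36, 1.24 and 1.40 FPKM in knockdown libraries 1, 2 and 3, against 5.19, 5.49 and 6.86 FPKM in scrambled libraries 1, 2 and 3. The knockdown libraries lay close together, and the lowest scrambled library was far above all of them. These levels rest on 110, 89 and 125 fragments in knockdown and on 467, 452 and 573 in scrambled libraries. Knockdown libraries averaged 1.33 ± 0.0805 FPKM and scrambled libraries 5.84 ± 0.888 FPKM (SD, n = 3 each), so that knockdown stood at 0.228 of the scrambled level. On the log2(FPKM + 0.5) scale, which understates the change of low genes, the difference was −1.78 ± 0.10 (SE), the 8th lowest of all tested genes. It was −1.62, −1.78 and −1.95 within batches 1, 2 and 3. A fall of at least 1 on this scale, with the threshold passed, was found in 1.09% of tested genes.

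Acot1, the cytosolic copy, was lower too, at a level close to the edge of detection. It had 0.470, 0.434 and 0.332 FPKM in knockdown libraries 1, 2 and 3, against 0.893, 0.909 and 1.49 FPKM in scrambled libraries 1, 2 and 3. Every knockdown library lay below every scrambled library, and scrambled library 3 stood apart above the other two. The values came from 27, 22 and 21 fragments in knockdown and 57, 53 and 88 in scrambled libraries. Knockdown libraries averaged 0.412 ± 0.0713 FPKM and scrambled libraries 1.10 ± 0.338 FPKM (SD, n = 3 each), knockdown at 0.376 of the scrambled level, with a log2 difference of −0.79 ± 0.16 (SE, from the fit without a filter). By batch, the log2 difference was −0.52 in batch 1, −0.59 in batch 2 and −1.25 in batch 3. Genes listed at 0 were more common in knockdown libraries, 3476 to 3868 of them against 3013 to 3188 in scrambled libraries, and the part of this in the level of so low a gene was not tested.

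The pair did not keep a fixed ratio. Acot2 stood 2.89, 2.87 and 4.22 times above Acot1 in knockdown libraries 1, 2 and 3, against 5.81, 6.04 and 4.61 times in scrambled libraries 1, 2 and 3. The ratio was lower in each knockdown library than in each scrambled library, although library 3 of both groups came close. GENCODE has 3919 exon bases for Acot1 over all its transcripts, where the values imply 1574. The Acot1 transcript shown above has 2272 bases, and a length of 2272 would give a smaller ratio than 3919. For Acot2 the exon bases and the transcript shown above are both 2196. With GENCODE exon bases as the gene length, the ratio was 7.27, 7.22 and 10.6 in knockdown and 14.6, 15.2 and 11.6 in scrambled libraries. The size of the ratio therefore depends on the length. A change of length multiplies the ratio by the same factor in every library, so its order between the groups could not change. How many Acot1 fragments belong to Acot2 was not tested. Together the type I pair made up 1.58 ± 0.0563% of the summed FPKM of the 6 genes in knockdown, against 6.57 ± 1.25% in scrambled libraries (SD, n = 3 each).

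Acot7 (chr4:152178134-152271855, plus strand), a type II enzyme of the cytosol best known from brain, was higher in knockdown. It had 44.8, 43.9 and 40.6 FPKM in knockdown libraries 1, 2 and 3, against 38.8, 36.1 and 33.6 FPKM in scrambled libraries 1, 2 and 3. The groups did not overlap, and library 3 was the lowest in both. Knockdown libraries averaged 43.1 ± 2.22 FPKM and scrambled libraries 36.2 ± 2.59 FPKM (SD, n = 3 each), knockdown at 1.19 times the scrambled level. The log2 difference was 0.25 ± 0.06 (SE) and 0.21, 0.28 and 0.27 within batches 1, 2 and 3. Its counts were the deepest of the 6 genes, 5718 to 6631 fragments in a knockdown library and 5120 to 6363 in a scrambled library.

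Acot9 (chrX:155262443-155297654, plus strand), a mitochondrial type II enzyme that hydrolyses both short and long acyl-CoAs, had the highest FPKM of the 6 genes in every library. Its level was 47.4, 45.5 and 44.9 FPKM in knockdown libraries 1, 2 and 3, against 40.9, 41.3 and 39.4 FPKM in scrambled libraries 1, 2 and 3. The groups were apart, with a gap wider than the spread within either. The mean of 46.0 ± 1.28 FPKM in knockdown libraries lay 13.4% above that of 40.5 ± 1.03 FPKM in scrambled libraries (SD, n = 3 each), with a log2 difference of 0.18 ± 0.03 (SE). The difference was 0.21, 0.14 and 0.19 within batches 1, 2 and 3. Acot10, a single-exon copy of Acot9, shared 0.968% of the 100-base windows of the Acot9 transcript and had at most 1 fragment in a library.

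Acot13 (chr13:24817948-24831540, minus strand), a small type II enzyme also called Them2, which partners phosphatidylcholine transfer protein, was slightly lower in knockdown. The values were 17.7, 16.3 and 16.6 FPKM in knockdown libraries 1, 2 and 3, against 19.7, 17.8 and 20.4 FPKM in scrambled libraries 1, 2 and 3. The highest knockdown and the lowest scrambled library nearly touched. Knockdown libraries averaged 16.9 ± 0.738 FPKM and scrambled libraries 19.3 ± 1.36 FPKM (SD, n = 3 each), and the log2 difference was −0.19 ± 0.06 (SE), or −0.15, −0.12 and −0.29 within batches 1, 2 and 3. Over 17 alternatives the log2 difference lay between −0.24 and −0.12, and −0.12 was the value under median centring.

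Acot8 (chr2:164792765-164804882, minus strand), the peroxisomal thioesterase of broad chain length, gave no difference beyond its spread. It had 2.85, 2.76 and 2.14 FPKM in knockdown libraries 1, 2 and 3, against 3.04, 2.70 and 2.76 FPKM in scrambled libraries 1, 2 and 3. The groups overlapped, with knockdown library 3 below the rest. Knockdown libraries averaged 2.58 ± 0.389 FPKM and scrambled libraries 2.83 ± 0.181 FPKM (SD, n = 3 each). The log2 difference of −0.12 ± 0.10 (SE) was −0.08, 0.03 and −0.31 within batches 1, 2 and 3, and it turned to 0.05 under quantile normalization and to 0.04 under cyclic loess normalization. Without knockdown library 3 it was −0.01. Acot8 overlaps Snx21, a gene on the other strand, and the sources do not state whether the counting used strand.

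**Figure D3:**
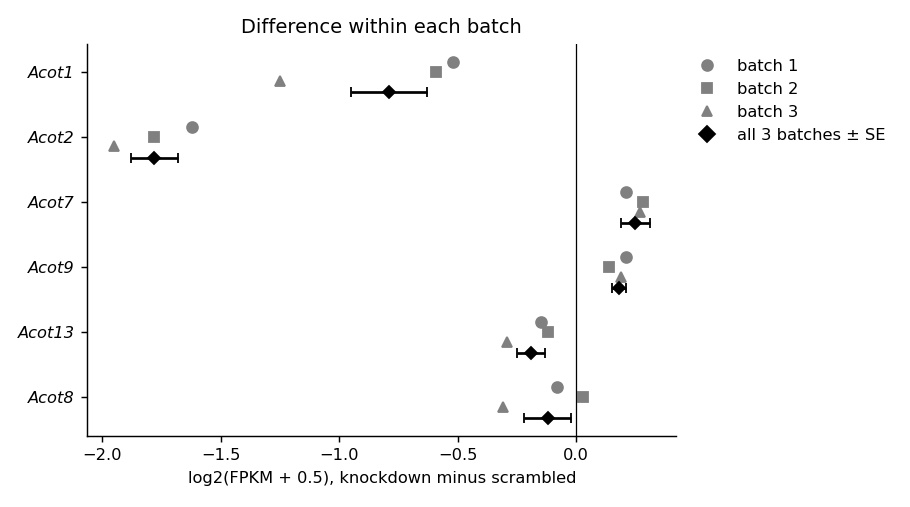
For each gene the grey symbols give the difference in log2(FPKM + 0.5), knockdown minus scrambled, within batches 1, 2 and 3, and the black diamond the difference over all 3 batches ± SE. Acot2 lies between −1.62 and −1.95 in every batch, Acot7 and Acot9 lie between 0.14 and 0.28, and the batches of Acot8 lie on both sides of 0.

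The order of the levels changed in its lower part. On the deposited FPKM, Acot9 and Acot7 were at the top in both groups and Acot13 came next. Acot7 stood at 0.946, 0.963 and 0.903 of Acot9 in knockdown libraries 1, 2 and 3 and at 0.948, 0.875 and 0.854 in scrambled libraries 1, 2 and 3, so the top pair differed little, with Acot9 above Acot7 in each library. That order rests on the gene lengths behind the FPKM, which the values imply to be 4048 bases for Acot7 and 1865 for Acot9, where GENCODE M21 has 2124 and 2273 exon bases. With the GENCODE lengths, an alternative added after seeing the data, Acot7 stood at 2.20, 2.24 and 2.10 times Acot9 in knockdown and at 2.20, 2.03 and 1.98 times in scrambled libraries. Below them Acot8 was above Acot2 in knockdown libraries, where Acot2 was 0.476, 0.451 and 0.656 of Acot8, while Acot2 was above Acot8 in scrambled libraries, at 1.71, 2.04 and 2.48 times its level. With the GENCODE lengths Acot2 was 0.289, 0.274 and 0.399 of Acot8 in knockdown libraries and 1.04, 1.24 and 1.51 times it in scrambled libraries, the same order. Acot1 was the lowest of the 6 in every library. Acot9 and Acot7 stood at percentiles 83.9 and 82.4 of mean level among tested genes, Acot13 at 64.7, Acot2 at 21.1 and Acot8 at 15.5.

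The summed level of the 6 genes differed little in size, and within each of the 3 batches it was higher in knockdown. It was 115, 110 and 106 FPKM in knockdown libraries 1, 2 and 3, against 109, 104 and 104 FPKM in scrambled libraries 1, 2 and 3, with means of 110 ± 4.32 and 106 ± 2.40 FPKM (SD, n = 3 each). The sums overlapped between the groups, also with the GENCODE lengths, which gave rescaled levels of 141 ± 6.21 in knockdown and 131 ± 4.71 in scrambled libraries. By library the rescaled sums were 147, 142 and 135 in knockdown libraries 1, 2 and 3, against 136, 130 and 127 in scrambled libraries 1, 2 and 3. They too were higher in knockdown within each batch. Acot7 and Acot9 together took 80.8 ± 0.347% of the sum in knockdown and 72.5 ± 2.33% in scrambled libraries. Acot2, Acot9 and Acot13, known as enzymes of mitochondria, together summed to 64.2 ± 1.99 FPKM in knockdown and 65.7 ± 1.03 FPKM in scrambled libraries. Acot2 was low and Acot9 high within that sum, so the ratio of these genes differed while their total did not beyond its spread.

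**Figure D4:**
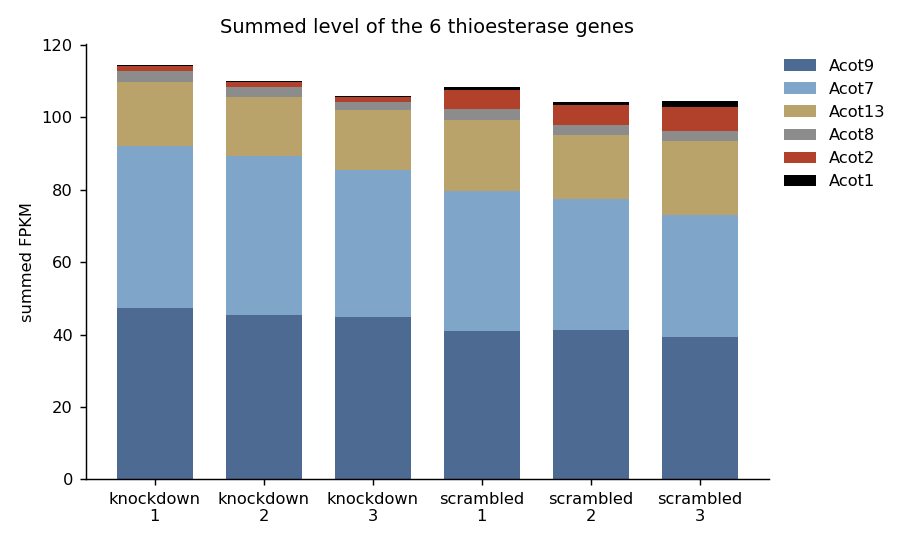
Stacked bars give the FPKM of the 6 thioesterase genes in each knockdown library (left) and each scrambled library (right). The bars reach 106 to 115 FPKM in knockdown and 104 to 109 FPKM in scrambled libraries, and the segment of Acot2 is thinner in knockdown.

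Transcripts most like Acot2 over the 6 libraries were sought among the tested genes, leaving out predicted genes, pseudogenes and unnamed clones. They were those of Gprasp1, Eprs, Col11a1, Grina and Sting1, with Pearson correlations of log2(FPKM + 0.5) of 0.9998, 0.9997, 0.9994, 0.9989 and 0.9984. The difference between the groups carries much of such a value, and 471 of the other tested genes (4.57%) had a correlation above 0.98. Eprs, the glutamyl-prolyl-tRNA synthetase, had 47.2, 46.6 and 47.4 FPKM in knockdown libraries 1, 2 and 3, against 62.1, 62.1 and 65.3 FPKM in scrambled libraries 1, 2 and 3. Its log2 difference was −0.42, smaller in size than that of Acot2, so the likeness is in the relative spacing of the libraries and not in the size. Col11a1, a fibrillar collagen chain, came closer in size with −0.96.

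Other thioesterases were either near 0 or did not pass the threshold. Of 15 listed genes 11 stood in the table and 5 were abundant enough to test, and of these 0 rose and 0 fell in knockdown. Of all tested genes 51.0% passed. At an unadjusted p under 0.05 the count was 1 of 5, Them4, a mitochondrial thioesterase, beside 5944 of all 10311 tested genes. Them4 had 2.36, 2.98 and 3.25 FPKM in knockdown libraries 1, 2 and 3, against 3.26, 3.52 and 3.66 FPKM in scrambled libraries 1, 2 and 3. The groups were separate by a small margin, and the log2 difference was −0.25 ± 0.10 (limma adjusted p = 0.0643). With batch as a replicate block it passed (adjusted p = 0.0251), as it did rescaled to TPM (0.0390) and without knockdown library 3 (0.0193).

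The remaining tested thioesterases lay close to 0 in difference. Ppt1 removes palmitate from proteins in the lysosome, and Ppt2 is a lysosomal thioesterase that acts on palmitoyl-CoA. Ppt1 averaged 16.8 ± 0.677 FPKM in knockdown and 16.0 ± 0.296 FPKM in scrambled libraries (SD, n = 3 each, here and for the next 3 genes; log2 difference 0.07, limma adjusted p = 0.198), and it passed under median centring (0.13, adjusted p = 0.0176). Ppt2 averaged 7.99 ± 0.975 FPKM in knockdown and 8.43 ± 1.05 FPKM in scrambled libraries (−0.07, adjusted p = 0.575). Hibch, a hydrolase of valine breakdown, averaged 6.59 ± 0.282 FPKM in knockdown and 7.19 ± 0.426 FPKM in scrambled libraries (−0.12, adjusted p = 0.120), and it passed rescaled to TPM (−0.16, adjusted p = 0.0441). Fasn, whose thioesterase domain releases the finished fatty acid, averaged 68.6 ± 3.71 FPKM in knockdown and 68.1 ± 1.59 FPKM in scrambled libraries (0.01, adjusted p = 0.881). 

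Of the type I genes that follow Acot1 on chromosome 12, Acot3, Acot4 and Acot6 were nearly silent, and Acot5 had no values. Acot3 had 0 fragments in each knockdown library and 1 in all scrambled libraries, and Acot4 had 0 in knockdown and at most 3 in a scrambled library. Acot6 had 15, 14 and 6 fragments in knockdown libraries 1, 2 and 3, against 12, 13 and 19 in scrambled libraries 1, 2 and 3. Acot11, a type II enzyme also called Them1, had 4, 7 and 4 fragments in knockdown and 11, 14 and 36 in scrambled libraries, a separation that rests on few fragments (limma adjusted p = 0.163 in the fit without a filter). Baat, the bile acid conjugating relative of the type I enzymes, had at most 4 fragments in a library. None of these genes passed in the fit without a filter, and the values of each rest on few fragments.

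Genes that make acyl-CoAs fell more often than they rose. Of 12 tested acyl-CoA synthetases, 9 fell and 1 rose (limma), with a median log2 fold change of −0.35 where the median of all tested genes was −0.05. The 10 that passed are 83.3% of the list, against 51.0% of all tested genes. Acsl3, an enzyme of the endoplasmic reticulum and lipid droplets, fell to 11.5, 12.2 and 12.5 FPKM in knockdown libraries 1, 2 and 3, against 17.2 FPKM in each scrambled library (log2 difference −0.50 ± 0.04, limma adjusted p = 5.68e-05). Acss2, which makes acetyl-CoA from acetate, fell to 1.16 ± 0.108 FPKM in knockdown, against 2.54 ± 0.0845 FPKM in scrambled libraries (SD, n = 3 each; −0.88, adjusted p = 7.04e-05). Slc27a3 (−0.51) and the arachidonate-preferring Acsl4 (−0.32) fell as well. The synthetase that rose was Acsl5, at 39.2, 36.8 and 36.4 FPKM in knockdown libraries 1, 2 and 3, against 30.4, 30.2 and 27.5 FPKM in scrambled libraries 1, 2 and 3 (0.35, adjusted p = 0.000505), named after its value was seen. Without scrambled library 3, 7 synthetases passed.

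Coenzyme A metabolism and acyl-CoA binding showed smaller shifts. Of 10 tested genes of coenzyme A synthesis and breakdown, 4 fell and 0 rose, a share of 40.0% beside the 51.0% of all tested genes. Without scrambled library 1, 2 passed. Coasy, the last enzyme of coenzyme A synthesis, fell to 7.19 ± 0.773 FPKM in knockdown, against 9.37 ± 0.670 FPKM in scrambled libraries (−0.36, limma adjusted p = 0.00496). Nudt8 (−0.27), a coenzyme A diphosphatase of mitochondria, passed in all alternatives but the fit on recovered fragments. Pank2 (−0.17), a mitochondrial pantothenate kinase, and Enpp1 (−0.25) each lost the call in 7 alternatives, both under median centring and without knockdown library 2 or scrambled library 1, Pank2 also without scrambled library 2 and Enpp1 also without scrambled library 3. Of 7 tested acyl-CoA and fatty acid binding genes, 1 rose and 3 fell. The fatty acid carrier Fabp5 rose to 208 ± 9.59 FPKM in knockdown, against 149 ± 1.73 FPKM in scrambled libraries (0.48, adjusted p = 3.34e-05). Dbi, the acyl-CoA binding protein, fell to 104 ± 4.73 FPKM in knockdown, against 123 ± 4.33 FPKM in scrambled libraries (−0.24, adjusted p = 0.00126), and Acbd3 (−0.19) and the sterol carrier Scp2 (−0.30) fell too.

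Enzymes that consume acyl-CoAs in beta-oxidation fell in part. Of 24 tested genes of the carnitine shuttle and mitochondrial beta-oxidation, 15 fell and 0 rose (median −0.17, limma), among them Acadl (−0.29), Decr1 (−0.30), Cpt2 (−0.34) and Acadm (−0.30). Under median centring 10 fell and 1 rose. The peroxisomal list, the compartment of Acot8, had 10 lower and 0 higher of 15 tested genes, with a median of −0.32. Crot, which hands shortened acyl groups to carnitine, fell to 2.73 ± 0.173 FPKM in knockdown, against 4.22 ± 0.221 FPKM in scrambled libraries (−0.55, adjusted p = 0.000283). Decr2 (−0.53), Ech1 (−0.53) and the oxidase Acox3 (−0.57) also fell. All tested genes passed as lower in 31.1%.

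Genes of the PPAR list, known regulators of Acot1 and Acot2 and their other targets, went both ways. Ppara, the gene of PPAR alpha, was listed but was not among the tested genes. Of 15 tested genes 7 fell and 2 rose (median −0.16, limma), and with batch as a replicate block 9 fell and 2 rose. The share that passed, 60.0%, lay near the 51.0% of all tested genes. Ppard, the receptor of this family with the widest expression, fell to 15.5 ± 0.512 FPKM in knockdown, against 18.9 ± 0.418 FPKM in scrambled libraries (−0.28, adjusted p = 0.000574). Ucp2, a mitochondrial carrier listed as a PPAR target, fell too (limma adjusted p = 0.000867). Its level was 2.07 ± 0.539 FPKM in knockdown, against 4.61 ± 0.789 FPKM in scrambled libraries. The listed target Acadm (−0.30, adjusted p = 0.000816) and the coactivator Ncoa1 (−0.48) fell as well. The genes that rose were named after their values were seen. They were the known PPAR targets Pdk4 (0.31, adjusted p = 0.0272) and Angptl4 (0.31, adjusted p = 0.0455). Both went opposite in direction to Acot2, while the targets Ucp2 and Acadm went in the same direction as Acot2. The Pdk4 groups overlapped, with 4.86 FPKM as the lowest knockdown and 4.95 FPKM as the highest scrambled value. Pdk4 lost its call without a filter and without knockdown library 1 or 3 or scrambled library 1 or 2, and Angptl4 without a filter, rescaled to TPM, without the limma trend and without knockdown library 3 or any scrambled library. Ucp2 and Acadm kept their calls in every alternative that tested them. Without scrambled library 1, 2 or 3, 6 genes of the list passed.

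Fatty acid synthesis and elongation genes also went both ways, 9 lower and 3 higher of 18 tested (median −0.11, limma), so that 66.7% passed beside 51.0% of all tested genes. The desaturases Fads1 (−0.66), Fads2 (−0.67) and Scd1 (−0.80) fell, and Hacd1 (0.49), an enzyme of elongation, rose with Elovl1 (0.16) and Elovl4 (0.20), the last pair named after their values were seen. Under median centring, quantile normalization and cyclic loess normalization 5 rose.

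**Figure D5:**
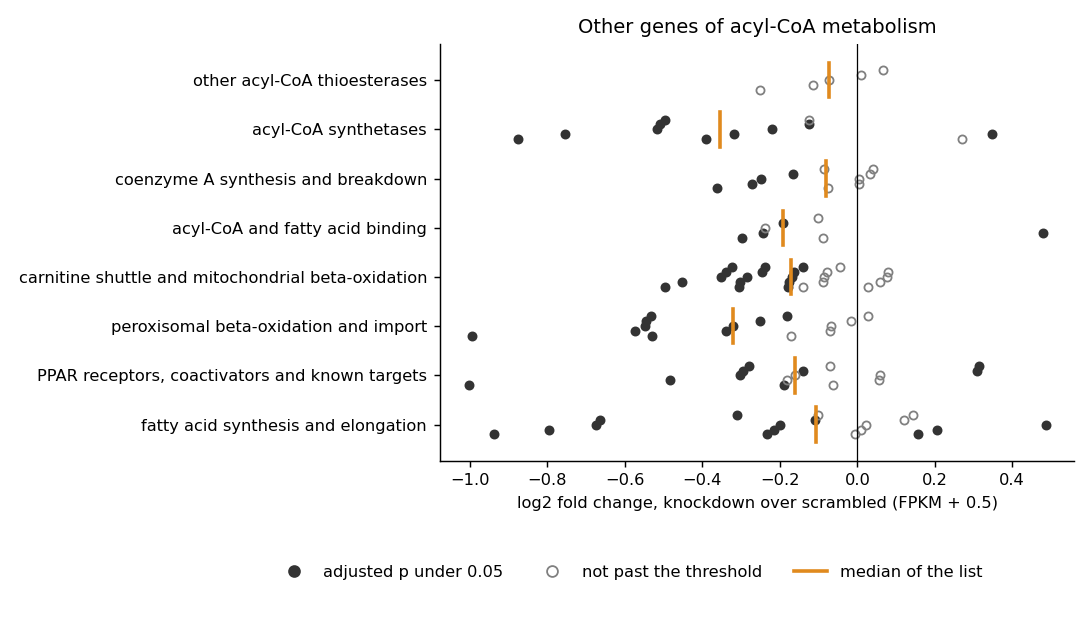
Each point is the log2 fold change, knockdown over scrambled on the log2(FPKM + 0.5) scale, of 1 tested gene of a list, filled where the limma adjusted p is under 0.05 and open where it is not, with the list's median as a vertical bar. All 5 other thioesterases are open, while 9 of 12 acyl-CoA synthetases are filled on the lower side.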

How the data were processed

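Messenger RNA was captured on beads, fragmented by heat and sequenced from 3 knockdown and 3 scrambled libraries, per the labels' protocols. The authors deposited FPKM per gene and library, per the labels. The submitters' processing notes name GRCm38, mm10 and GRCm39. The aligner, counter and strand setting are not stated in these sources.

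The members and gene lists were chosen with earlier results of these data known. Log2(FPKM + 0.5) values of the 10311 genes with FPKM of at least 1 in at least 3 libraries were fitted in R 4.3.3 with limma 3.58.1 (trend on the mean level, two-sided), with Benjamini-Hochberg adjustment over all tested genes and a threshold of 0.05. The script was tested on simulated data. A p-value measures only the spread between these libraries. FPKM steps gave whole fragments within 0.002 for 19877 of 19877 genes, and fragments of low genes may be understated by a shared factor. Gene lengths implied by the values differ from GENCODE M21 for some members (4048 against 2124 exon bases for Acot7). Sequences came from GENCODE M21 and RefSeq GRCm38.p6, aligned with Biopython 1.88.

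Named were Ifit1, the 6 members, all listed thioesterases, up to 4 tested genes of smallest p per other list, and the 5 genes most correlated with Acot2. Predicted genes, pseudogenes and unnamed clones were left out of that last choice. The labels give libraries of 1 number the same batch, so the number pairs them; deviations from the group means correlated at 0.0859, 0.012 and 0.1894 in batches 1, 2 and 3. The alternatives (17) were other pseudocounts, filters and scalings, no trend, the block, recovered fragments, and leaving out each library. Levels between members were also rescaled to GENCODE exon bases, chosen after seeing the data.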

Additional observations from a re-analysis of the deposited data

How the results depend on the processing

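The count of genes past the threshold (5255 of 10311) ran from 3892 to 5575 over the 17 alternatives, and from 4335 to 5284 with 1 library left out. Of the calls 38.9% were higher in knockdown, against 27.6% rescaled to TPM, 56.7% under median centring, 52.4% under quantile normalization and 47.8% under cyclic loess normalization. With batch as a replicate block 5229 genes passed, and among 38 tested genes named beside the members and the genes most like Acot2 it changed only the call of Them4. Acot2 ran from −2.06 to −1.55, Acot1 from −1.20 to −0.56 over 13 alternatives, Acot7 from 0.20 to 0.32, Acot9 from 0.14 to 0.25 and Acot13 from −0.24 to −0.12, with no change of sign. Acot8 ran from −0.18 to 0.05, above 0 under quantile and cyclic loess normalization.

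Of 153 list counts under alternatives, 144 stayed within 1.5 times. The other thioesterases (0) came to 2 rescaled to TPM, 1 under median centring, 1 with the replicate block and 0 to 1 with a library left out. Coenzyme A genes (4) came to 2 under median centring, 2 on recovered fragments and 2 to 4 with a library left out. At a mean FPKM of at least 5, 6 peroxisomal genes (10) and 5 PPAR genes (9) passed, from fewer tested genes. Left-out libraries gave 7 to 11 synthetases, 4 to 5 binding, 12 to 17 mitochondrial, 9 to 11 peroxisomal, 6 to 9 PPAR and 11 to 12 synthesis genes. Of the same 38 genes, the sign turned only for Ppt2 (0.01 under quantile normalization, and −0.16 to 0.01 with 1 library left out, turning without knockdown library 3 or scrambled library 3) and Fasn (−0.04 rescaled to TPM and under cyclic loess, −0.02 under quantile normalization, −0.03 without knockdown library 2, −0.01 without scrambled library 1), neither past the threshold; the cause was not tested. Low counts limit Acot1. The genes most like Acot2 were not followed through the alternatives.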
